A study of Rattus norvegicus with 9 samples.

Results

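Schwann cells are the glia of peripheral nerves, and 5 of their genes were followed here in pancreatic islet RNA: S100b, Sox10, Gfap, Ngfr and Cnp. They were chosen by name. A probe set was taken as a member when the platform annotation gave it exactly 1 gene symbol equal to a listed name, which found 6 probe sets for 5 of 5 genes, out of 14217 genes with such a probe set. Cnp had 2 probe sets and the other genes 1 each. Islets came from adult male Wistar rats, 7 weeks old at the start, kept for 30 days on a cafeteria diet with 66% of calories as fat (5 arrays) or on standard chow with 8% (4 arrays). Cafeteria feeding means free access to varied energy-dense human foods. Islets were freed with collagenase, purified on a density gradient and picked by hand. The labels do not say whether islets of several rats were pooled for an array. Each array was an Affymetrix Rat Genome 230 2.0 array hybridised with biotin-labelled RNA, described as an independent biological replicate. The titles set the groups. A separate diet entry in the labels contradicts the title of 9 of 9 samples, and with that entry all signs below would be turned round.

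In rodents, Schwann cells form a thin sheath around the islet and accompany the nerve fibres that enter it. Such non-myelinating glia are known by the calcium-binding protein S100b, the filament protein Gfap and the neurotrophin receptor Ngfr (p75). Their identity depends on the transcription factor Sox10, which also switches on myelin genes in Schwann cells that wrap axons with myelin, and Cnp is an enzyme of that myelin. None of these genes marks Schwann cells alone: Gfap and Ngfr are also known from pancreatic stellate cells, the fibroblast-like cells of the organ. Cnp is found at lower levels in many cell types. How much of the sheath stayed on the islets after collagenase treatment was not measured.

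In the RefSeq annotation of the rat assembly GRCr8, Sox10 lies at chr7:112605721-112615097, S100b at chr20:12372345-12381159, Ngfr at chr10:81012077-81030305, Cnp at chr10:86011504-86018063 and Gfap at chr10:88352987-88361661. Promoter sequences from RefSeq (GRCr8) matched 3 of the 5 members. They run from 250 bases before the start site used in that table to 50 after it, and the S100b site lies inside the gene span given above. They are shown 5′ to 3′ on the strand of the gene, because Sox10, the regulator among the members, is known to bind short A-rich sites. Capitals mark a match to ACAAAG or ACAATG, core letters of sites for Sox proteins, searched on both strands; these motifs share their first letters and do not overlap one another here.
Cnp, chr10:86011254-86011553, plus strand: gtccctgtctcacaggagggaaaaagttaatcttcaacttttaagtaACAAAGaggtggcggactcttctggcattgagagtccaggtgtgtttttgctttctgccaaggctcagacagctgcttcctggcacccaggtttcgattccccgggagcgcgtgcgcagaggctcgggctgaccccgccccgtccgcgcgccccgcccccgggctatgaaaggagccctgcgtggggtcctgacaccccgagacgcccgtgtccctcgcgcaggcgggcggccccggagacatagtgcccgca
S100b, chr20:12381032-12381331, minus strand: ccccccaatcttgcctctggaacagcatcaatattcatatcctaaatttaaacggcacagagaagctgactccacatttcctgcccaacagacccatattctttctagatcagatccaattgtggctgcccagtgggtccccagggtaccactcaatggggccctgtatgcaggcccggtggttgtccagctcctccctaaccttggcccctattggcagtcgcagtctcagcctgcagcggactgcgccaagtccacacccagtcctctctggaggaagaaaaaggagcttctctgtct
Gfap, chr10:88361612-88361911, minus strand: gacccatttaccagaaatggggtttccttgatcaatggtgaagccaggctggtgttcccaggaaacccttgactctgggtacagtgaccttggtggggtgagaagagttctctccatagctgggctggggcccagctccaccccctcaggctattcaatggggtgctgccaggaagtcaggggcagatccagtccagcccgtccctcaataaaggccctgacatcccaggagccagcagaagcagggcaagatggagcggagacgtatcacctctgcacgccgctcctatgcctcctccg
The Cnp promoter held 1 match, ACAAAG on the gene's own strand, with its first base 203 bases before the start site (offset -203). The S100b and Gfap windows held 0 matches. Of 33469 promoters of this length, 18.8% held ACAAAG and 29.1% held either motif, so a match in 1 of 3 windows is a description of these letters only.

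Signals on this array are linear intensities made by the authors with MAS5, scaled so that each array had a trimmed mean of 500. They were compared as log2(signal + 16), and a log2 fold is the cafeteria mean minus the standard mean on that scale, which understates changes of dim probe sets. Differences were tested with limma over 18625 probe sets, those at or above the 40th percentile of mean log2 signal (a signal of about 91.1). Only Cnp passed that filter among the 5 genes. The main probe sets of Sox10, S100b, Gfap and Ngfr lay below it, at the 17.4th, 33.1st, 14.2nd and 31.3rd percentiles of mean signal, so these 4 genes were dim on the array. Their standard errors and adjusted p-values come from a fit with no filter, over 31042 probe sets. Detection calls were not used here, so whether their transcripts were detected at all is not known.

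No member passed the test in either direction, by limma with Benjamini-Hochberg adjustment over all probe sets. The same test called 0% of the 18625 filtered probe sets and 0% of the 31042 unfiltered ones, with lowest adjusted p-values of 0.228 and 0.330. At an unadjusted p under 0.05, 1080 filtered probe sets (5.80%) and 1717 unfiltered ones (5.53%) were found, and 0 of the 6 member probe sets. Signals of cafeteria and standard arrays overlapped for 6 of 6 member probe sets, while the groups did not overlap for 1.75% of all 31042 probe sets and 1.76% of the filtered ones. Had a member differed, a changed number of Schwann cells and changed RNA per cell could not have been told apart in such bulk samples.

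**Figure D1:**
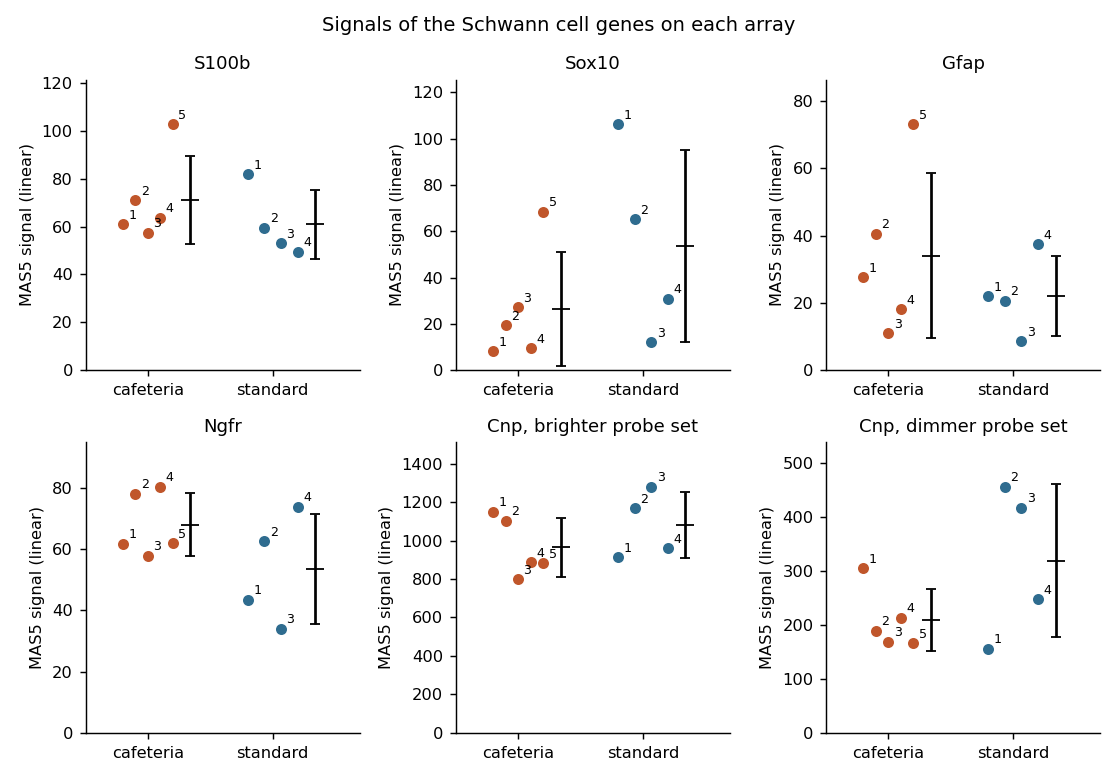
Linear MAS5 signal (y axis, from 0) of each member probe set on each array, with cafeteria arrays at left and standard arrays at right. Points are arrays labelled by replicate number, and bars are the mean ± SD (n = 5 and n = 4). The groups overlap in all 6 panels, and Sox10 runs from 8.08 to 106.3 over the 9 arrays.

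Sox10, the transcription factor that specifies Schwann cells, had the widest scatter of the 5 genes. Its signal was 8.08, 19.4, 27.2, 9.45 and 68.4 on cafeteria arrays 1 to 5, against 106.3, 65.2, 12.0 and 30.9 on standard arrays 1 to 4. Standard replicate 1 was the highest array and cafeteria replicate 1 the lowest, and 2 of 5 cafeteria arrays lay below all standard arrays. The mean was 26.5 ± 24.7 (SD, n = 5) in cafeteria islets and 53.6 ± 41.5 (SD, n = 4) in standard islets. The log2 fold was -0.66 ± 0.47 (SE), with a 95% interval from -1.67 to 0.35 and an adjusted p of 0.899 by limma. An exact two-sided permutation test that enumerated every way to divide the arrays 5 against 4, and whose smallest possible p is 0.0079, gave p = 0.230. The value was -0.32 without standard replicate 1 and -1.03 without standard replicate 3. With a pseudocount of 1 it was -1.001 and with 64 it was -0.35.

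S100b, the calcium-binding protein by which Schwann cells are stained, was steadier. On cafeteria arrays 1 to 5 it read 61.0, 71.0, 57.4, 63.6 and 102.8, against 81.7, 59.6, 53.0 and 49.6 on standard arrays 1 to 4. Cafeteria replicate 5 alone exceeded every standard array, and the other cafeteria arrays lay within the standard range. Means were 71.2 ± 18.4 (SD, n = 5) in cafeteria islets and 61.0 ± 14.5 (SD, n = 4) in standard islets. The log2 fold was 0.17 ± 0.27 (SE; 95% interval -0.41 to 0.76; limma adjusted p = 0.955; exact permutation p = 0.397). Without cafeteria replicate 5 it was 0.058. In this fit the interval reaches folds of 0.753 and 1.69, so a change of that size could not be told from no change.

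Gfap encodes the intermediate filament of non-myelinating Schwann cells and astrocytes and was the dimmest member. It gave 27.6, 40.5, 10.98, 18.2 and 73.2 on cafeteria arrays 1 to 5, and 22.0, 20.6, 8.57 and 37.5 on standard arrays 1 to 4. Both diets had their lowest Gfap signal on replicate 3, and 2 of 5 cafeteria arrays lay above all standard arrays. The mean was 34.1 ± 24.5 (SD, n = 5) in cafeteria islets and 22.2 ± 11.8 (SD, n = 4) in standard islets, a log2 fold of 0.32 ± 0.38 (SE). Its 95% interval ran from -0.50 to 1.13, with a limma adjusted p of 0.938 and an exact permutation p of 0.444. Without cafeteria replicate 5, the highest array, the log2 fold was 0.079.

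Ngfr, the low-affinity receptor for nerve growth factor and the other neurotrophins, read 61.8, 78.1, 57.9, 80.4 and 62.0 on cafeteria arrays 1 to 5. Standard arrays 1 to 4 read 43.5, 62.7, 34.1 and 73.9. The lowest arrays were standard replicates 3 and 1, and the highest were cafeteria replicates 4 and 2. Cafeteria islets averaged 68.0 ± 10.4 (SD, n = 5) and standard islets 53.5 ± 18.1 (SD, n = 4). The log2 fold was 0.30 ± 0.28 (SE; 95% interval -0.30 to 0.90; limma adjusted p = 0.917; exact permutation p = 0.143). It was 0.157 without standard replicate 3 and 0.44 without standard replicate 4.

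Cnp, the myelin-associated nucleotide phosphodiesterase, was the only member measured well above the filter, at the 84.1st percentile of mean signal. Its brighter probe set gave 1150, 1104, 798.3, 887.7 and 881.0 on cafeteria arrays 1 to 5, against 913.0, 1169, 1279 and 959.3 on standard arrays 1 to 4. Cafeteria replicates 3, 4 and 5 lay below all standard arrays, and replicates 1 and 2 within their range. Means were 964.2 ± 153.6 (SD, n = 5) in cafeteria islets and 1080 ± 173.4 (SD, n = 4) in standard islets. The log2 fold was -0.16 ± 0.15 (SE), and its 95% interval from -0.48 to 0.15 bounds the fold between 0.719 and 1.11 (limma adjusted p = 0.876; exact permutation p = 0.317). It was -0.077 without standard replicate 3.

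The second Cnp probe set, at the 58.4th percentile, leaned the same way with a larger value. It read 305.0, 189.0, 168.5, 213.4 and 165.8 on cafeteria arrays 1 to 5, and 155.5, 455.4, 416.9 and 247.2 on standard arrays 1 to 4. Standard replicates 2 and 3 were the highest arrays, yet standard replicate 1 was the lowest of all 9. The log2 fold was -0.50 ± 0.29 (SE; 95% interval -1.12 to 0.12; limma adjusted p = 0.859; exact permutation p = 0.190). Averaging both probe sets gave -0.33 ± 0.21 (limma adjusted p = 0.859). Across the 9 arrays the Cnp probe sets followed each other, with a Pearson r of 0.83 (exact permutation p = 0.0076) and a Spearman rho of 0.80 (exact permutation p = 0.0138). Without standard replicates 3 and 2, the arrays farthest from the median, r was 0.65, and r was 0.79 over deviations from the diet means. Each diet held fewer than 6 arrays, so no r was computed within a diet.

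**Figure D2:**
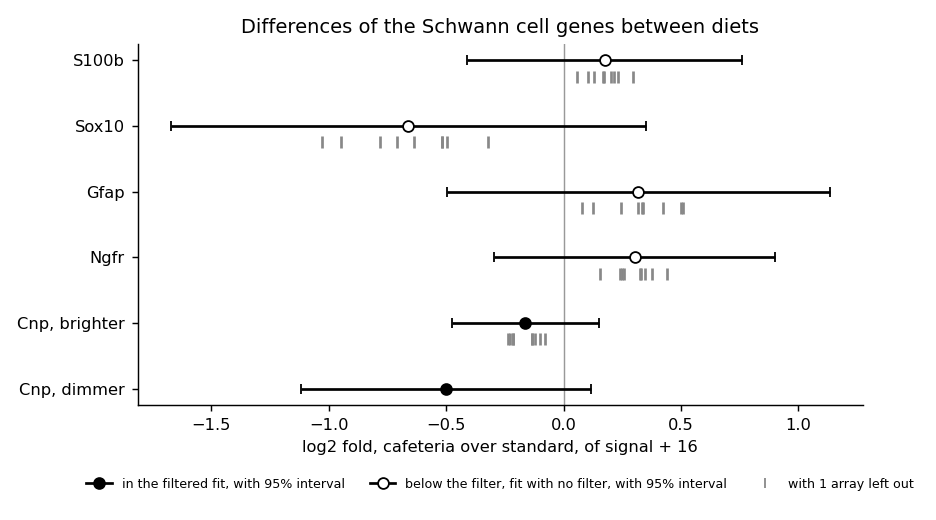
Log2 fold of cafeteria over standard (x axis, of signal + 16) for each member probe set with its 95% interval by limma. Filled points passed the brightness filter, open points did not, and grey ticks below the main probe sets mark the value with 1 array left out. All 6 intervals cross 0.

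The sign of each member's log2 fold stayed the same with each array left out, positive for S100b, Gfap and Ngfr and negative for Sox10 and Cnp. The 5 genes thus leaned in different directions, with no difference past the test. Over all 31042 probe sets the median log2 fold was -0.012 and 48.0% were positive. Standard deviations within the diets, on the log2 scale, were 0.82 for Sox10, 0.59 for Gfap, 0.28 for Ngfr, 0.27 for S100b and 0.23 for the brighter Cnp probe set. Of the 1240 probe sets within 2 percentile points of the same brightness, 78.4% had a smaller spread than Sox10, 28.1% than Gfap, 6.05% than Ngfr and 5.65% than S100b. The Ngfr and S100b signals were thus among the steadier ones at their brightness, and 90.6% of like probe sets were steadier than the dimmer Cnp probe set.

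Whether the 5 genes varied together from array to array was examined over their 10 pairs. Correlations of log2 signals over the 9 arrays were positive for 5 of 10 pairs, and 0 of 10 had an unadjusted exact permutation p under 0.05. The highest was between S100b and Gfap, with a Pearson r of 0.65 (exact permutation p = 0.0618, adjusted over the 10 pairs 0.586) and a Spearman rho of 0.52 (exact permutation p = 0.162, adjusted 0.728). Without cafeteria replicate 5 and standard replicate 1, the arrays farthest from the S100b median, that r was 0.30. S100b and Sox10 had a Pearson r of 0.56 (exact permutation p = 0.117, adjusted 0.586) and a Spearman rho of 0.32 (exact permutation p = 0.410, adjusted 0.728). With the same arrays left out it was -0.19, so the relation rested on them, and over deviations from the diet means it was 0.82. Cafeteria replicate 5 and standard replicate 1 held the highest S100b and Sox10 signals of their diets. Their ratios of 3′ to 5′ beta-actin signal, a sign of RNA integrity and labelling, were 4.59 and 4.84, against 2.79 to 5.63 over all 9 arrays. Their Gapdh 3′ to 5′ ratios, 1.62 and 1.64, were the highest of the 9 arrays, against 1.29 to 1.60 on the others, and the part of these ratios in the relation was not tested. All 4 pairs of Cnp with another member had a negative r, from -0.35 with S100b to -0.18 with Gfap, and none passed. Their lowest exact permutation p was 0.364 (adjusted 0.613). Without the arrays farthest from the median, r was 0.59 with Gfap, 0.092 with Ngfr, 0.024 with S100b and -0.028 with Sox10, so the negative sign rested on those arrays for 3 of the 4 pairs.

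**Figure D3:**
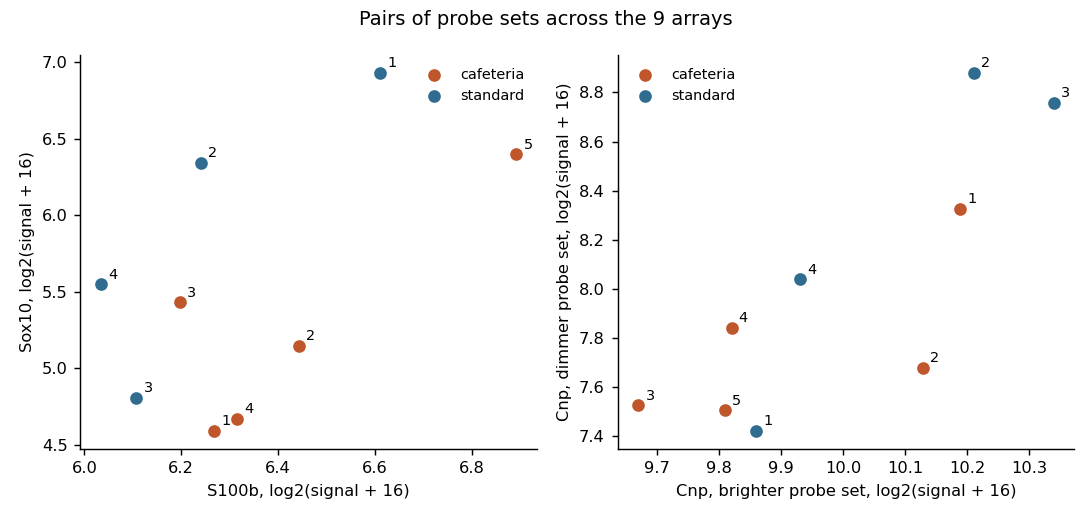
Signals on the 9 arrays as log2(signal + 16), S100b against Sox10 at left and the brighter against the dimmer Cnp probe set at right, with points coloured by diet and labelled by replicate. The left relation (r = 0.56) rests on cafeteria replicate 5 and standard replicate 1, and the right one has r = 0.83.

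The genes whose signals were most like each member over the 9 arrays were taken among about 14053 named probe sets that passed the filter. With so few arrays, high values of r are common in such a search, and they are given as a description. Cnp was closest to Supt6h (r = 0.98), Mid1ip1 (r = 0.96) and Rnf220 (r = 0.96), and 633 probe sets had an r over 0.8 with it. Sox10 was closest to Brd1 (0.99), Brd10 (0.92) and Ift81 (0.91), and Gfap to Lrrc23 (0.997), Paqr7 (0.97) and Rdx (0.94). S100b was closest to Slc4a7 (0.93), Sned1 (0.93) and Mrpl12 (0.92), which were 0.67, 0.59 and 0.66 without cafeteria replicate 5 and standard replicate 1. Ngfr was closest to Vcp (0.95), Igfbp2 (0.92) and Nsrp1 (0.90), which were 0.70, 0.78 and 0.55 without standard replicates 3 and 1. For Ngfr, 24 probe sets had an r over 0.8, and for Gfap 71. None of these 15 genes was on a list of Schwann cell genes used here.

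Other glial genes gave as little sign of a difference. A set of 9 genes of myelin proteins and their regulators was used. Only 2 of the 9 passed the filter, and 0 passed the test. Mbp, myelin basic protein, averaged 1202 in cafeteria islets and 1428 in standard islets, a log2 fold of -0.21 ± 0.17 (SE; limma adjusted p = 0.870). Mbp is not exclusive to myelin, since alternative transcripts of its locus are known from other cells, and 1 of its 3 probe sets passed the filter. Pmp22, a peripheral myelin protein also made outside nerves, had a log2 fold of 0.093 ± 0.18, and its other tested probe set had -0.0084. With the 7 dim genes included (Mag, Prx, Gjb1, Mal, Egr2, Pou3f1 and Cadm4), 8 of 9 had a negative log2 fold and the median was -0.29, against 48.0% positive over all probe sets. None of the 9 had an adjusted p under 0.05, and the dim members carry little signal. Standard replicate 1 was the highest array for Prx (119.8), Gjb1 (32.1), Egr2 (226.5), Pou3f1 (52.3) and Cadm4 (95.3), but not for Mag and Mal. The median over all 9 genes was not taken without that array.

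Among 12 other genes of non-myelinating and immature Schwann cells, 11 had a named probe set, 3 passed the filter and 0 passed the test; the median log2 fold of the 3 was 0.093, against -0.0090 over all 18625 tested probe sets. The adhesion molecule Ncam1 had a log2 fold of 0.093 ± 0.21 (SE), the growth cone protein Gap43 0.16 ± 0.16 and the membrane proteolipid Gpm6b 0.048 ± 0.14. Endocrine cells also express Ncam1. Erbb3, the neuregulin receptor by which axons support Schwann cells, lay below the filter with means of 32.8 in cafeteria islets and 49.0 in standard islets (-0.38 ± 0.48, limma adjusted p = 0.940). Cdh19, a cadherin of the Schwann cell lineage, had no probe set named here. The label of the 5 genes as Schwann cell genes rests on what they are known for and not on these signals.

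Ligands and co-receptors of Ngfr were looked at as the same pathway. Of 15 neurotrophin and neuregulin genes, 13 had a named probe set, 6 passed the filter (2 higher and 4 lower in cafeteria islets, median log2 fold -0.048) and 0 passed the test. Bdnf and Ntf3, which are neurotrophin ligands, were dim, with mean signals of 38.5 and 46.4 in cafeteria islets and 49.5 and 48.2 in standard islets. Ntrk2, the receptor for Bdnf, had a log2 fold of 0.088 ± 0.13 (SE), with 3 of its 4 tested probe sets positive. Sort1, which binds proneurotrophins together with Ngfr, had -0.11 ± 0.13. Rtn4r and Lingo1, partners of Ngfr in the receptor for myelin inhibitors of axon growth, had -0.34 ± 0.19 and -0.074 ± 0.16, and limma's adjusted p-values for the 4 named genes lay between 0.859 and 0.960.

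Relatives of S100b and Gfap were set beside them. On the list of 13 S100 genes, which also holds the binding partner gene S100pbp, 10 passed the filter, 4 higher and 6 lower in cafeteria islets with a median log2 fold of -0.099, and 0 passed the test. S100a6, found in many stromal and duct cells, averaged 312.6 ± 46.0 (SD, n = 5) in cafeteria islets and 539.6 ± 285.0 (SD, n = 4) in standard islets. Standard replicate 1 was the highest array at 944.6, and standard replicate 3, at 288.6, lay within the cafeteria range of 254.1 to 357.4. The log2 fold of S100a6 was -0.64 ± 0.26 (SE), with an unadjusted limma p of 0.031 and a limma adjusted p of 0.839. S100a9, a myeloid protein, had 0.37 ± 0.25, S100a10 0.25 ± 0.19 and S100a11 -0.24 ± 0.21. Of the filaments related to Gfap, 4 of 4 passed the filter (median log2 fold 0.071) and 0 the test: vimentin (Vim) had 0.10 ± 0.17, desmin (Des) -0.26 ± 0.21, peripherin (Prph) 0.20 ± 0.30 and nestin (Nes) 0.037 ± 0.19.

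**Figure D4:**
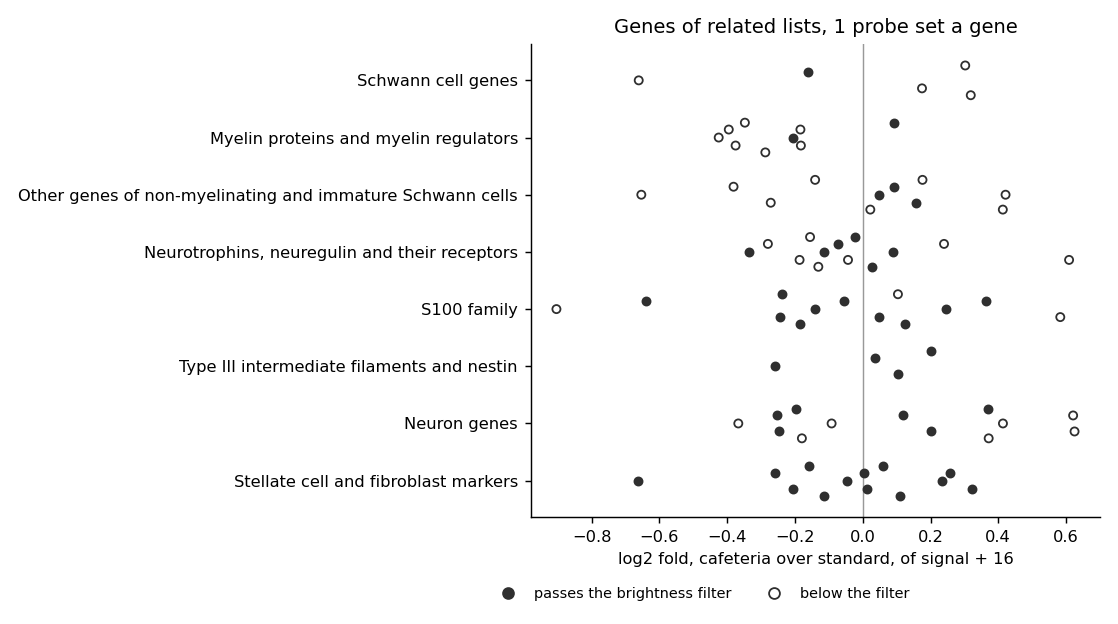
Log2 fold of cafeteria over standard (x axis, of signal + 16) for each named gene of 8 lists, 1 point per gene. Filled points passed the brightness filter and open points lay below it. Folds of every list lie on both sides of 0, none passed limma's test, and 8 of the 9 myelin genes are left of 0, of which 7 are open.

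Markers of other cells were measured beside these genes. Stellate cell and fibroblast markers passed the filter in 13 of 13 cases, 7 higher and 6 lower in cafeteria islets with a median log2 fold of 0.0051 and 0 past the test. Their summed signal ran from 13058 to 23886 in cafeteria islets and from 14864 to 20191 in standard islets. Acta2, the smooth muscle actin of activated stellate cells and pericytes, averaged 313.0 in cafeteria islets and 505.9 in standard islets (log2 fold -0.66 ± 0.19, SE; unadjusted p = 0.0046, limma adjusted p = 0.839). Dcn, a matrix proteoglycan, had -0.21 ± 0.13, and Timp1, an inhibitor of matrix proteases, 0.26 ± 0.24. Neuron genes, for the axons that Schwann cells accompany, were tested for 6 of 13 named genes, 3 higher and 3 lower in cafeteria islets (median log2 fold -0.040), with 0 past the test. Nefm, a neurofilament, had a log2 fold of 0.37 ± 0.21, Tubb3 -0.25 ± 0.20, Ret -0.25 ± 0.17 and Elavl4 -0.20 ± 0.15 (SE), and endocrine cells express several of these.

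Markers of leukocytes and of acinar, endothelial, duct and endocrine cells were looked at next. Of the macrophage markers 7 were tested and of the lymphocyte markers 3, with lower values in cafeteria islets for 7 and 3 of them (median log2 folds -0.21 and -0.75), and 0 passed the test. The summed signal of 10 of 10 macrophage markers was 3140 to 4597 in cafeteria islets and 4979 to 9242 in standard islets, and that of 7 of 7 lymphocyte markers was 507.2 to 705.8 in cafeteria islets and 724.8 to 3395 in standard islets. Each gap between the diets closed when the 1 gene of its list whose groups did not overlap was left out. Other genes were not left out in this way, so whether a gap rested on that gene alone was not tested. Cd74, the MHC class II invariant chain, averaged 2168 ± 383.5 (SD, n = 5) in cafeteria islets and 4412 ± 1965 (SD, n = 4) in standard islets. Its log2 fold was -0.95 ± 0.22 (SE), with an unadjusted limma p of 0.00076 and a limma adjusted p of 0.839. Without Cd74 the macrophage sums were 1267 to 1955 in cafeteria islets and 1658 to 2027 in standard islets, which overlap. Without Cd79b, a B cell receptor gene below the filter, chosen after its values were seen, the lymphocyte sums were 496.6 to 698.4 in cafeteria islets and 681.4 to 3120 in standard islets, which also overlap. Standard replicate 3 was the highest array in the sums of both full lists. That array also held the lowest Ngfr and Gfap signals and the highest signal of the brighter Cnp probe set, and without it the brighter Cnp probe set had a log2 fold of -0.077 and Ngfr of 0.157. Acinar markers, 7 of 7 tested and 0 past the test, were higher in cafeteria islets for 6 and lower for 1 (median log2 fold 0.66). Of these, 2 had an unadjusted limma p under 0.05, against 5.80% of all filtered probe sets. They were Cela3b (log2 fold 1.37 ± 0.45, SE) and Ctrb1 (0.94 ± 0.39), each with a limma adjusted p of 0.839. Acinar markers were not alone at that threshold. It was also met by 2 of 7 tested macrophage markers, 1 of 3 lymphocyte, 1 of 6 endothelial and 1 of 13 stellate markers. Duct and endocrine markers had 0. The acinar sums ran from 2021 to 7628 in cafeteria islets and from 2383 to 6992 in standard islets. Endothelial markers (6 of 6 named genes tested, 0 past the test, median -0.19) summed to 11498 to 13301 in cafeteria islets and 12290 to 14047 in standard islets. Duct markers (4 of 6 named genes tested, 0 past the test, median -0.155) summed to 9127 to 10904 in cafeteria islets and 9362 to 14449 in standard islets. The duct median was 0.058 without standard replicate 1 and -0.41 without standard replicate 4. The islet hormone genes and Chga, 7 of 7 tested and 0 past the test (median 0.060), summed to 192631 to 282972 in cafeteria islets and 187783 to 274739 in standard islets. The lowest signal of any non-control probe set was 0.165, so a signal above 0 does not show that a marker was detected. The part of these other cells in the values of the 5 genes was not tested.

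**Figure D5:**
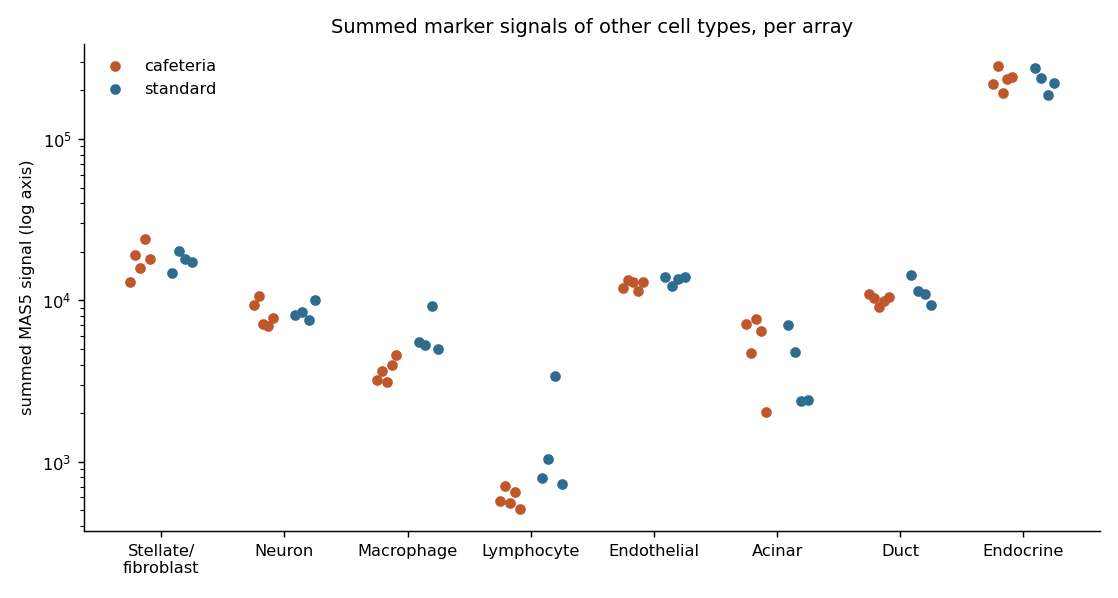
Summed MAS5 signal (log axis) of the marker genes of 8 other cell types on each array, cafeteria arrays left of standard arrays. Macrophage and lymphocyte sums do not overlap between the diets, with standard replicate 3 highest, a gap that ends without Cd74 or Cd79b, and the other 6 sums overlap.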

How the data were processed

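Islet RNA of rats was measured on single-colour arrays, 5 for the cafeteria diet and 4 for standard chow. The authors deposited linear intensity values for 31099 probe sets, and the submitters' processing notes name MAS5 as the tool; version and settings: not given in the sources used here. After trimming 2% at both ends, all 9 arrays averaged 500, so no further scaling was applied. Array medians ranged from 147.0 to 166.6 and between-array correlations from 0.941 to 0.974. Arrays have no read depth, and their number limits the precision. A further standard sample of the design text was not analysed here.

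The 57 control probe sets were left out. Names came from the platform annotation, with current symbols by identifier for 20758 of 20826 probe sets with 1 symbol; 436 had several and 9780 none. Of several probe sets of a gene, the one with the highest mean was used. limma 3.58.1 (R 4.3.3) with an intensity trend and diet as the only term gave the tests, with a threshold of 0.05 on the adjusted p; the fit was tested on simulated data. Members and lists were chosen with earlier results of these data known. The genes named are the members, the 4 with the smallest unadjusted p among the tested genes of each list, some defining markers and the 3 most correlated genes per member. Not all genes named by this rule in the lists of other cells are given.

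Replicate numbers 1 to 4 are shared between the diets. Correlations of same-numbered arrays' deviations from the group means were -0.38, -0.053, -0.12 and 0.030. They gave no sign that the numbers pair the arrays, but so few values cannot show that they do not. Alternatives were other pseudocounts, scalings, filters and variance models, and leaving out arrays.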

Additional observations from a re-analysis of the deposited data

Results flagged for a closer look

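On 3 of 38 group values examined, 1 array stood apart from its group by Dixon's criterion, where chance gives about 1 in 20. None was a signal of a Schwann cell gene. The summed signal of lymphocyte markers was 3395 on standard replicate 3, against 1034 on the next array of its diet. That of macrophage markers was 9242 on standard replicate 3, against 5521 on the next. Cd74 alone read 7348 on that array, and without Cd74 the macrophage sums of the standard arrays ran from 1658 to 2027. The summed signal of the filaments Vim, Des, Prph and Nes was 1593 on standard replicate 4, below the 1955 of the next array.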

How the results depend on the processing

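The log2 folds of the 5 genes kept their sign and stayed without a call under all alternatives run (21 for each gene, 23 for Cnp). With each array left out they ranged from 0.058 to 0.296 for S100b, from -1.03 to -0.32 for Sox10, from 0.079 to 0.51 for Gfap, from 0.157 to 0.44 for Ngfr and from -0.24 to -0.077 for Cnp. The lowest adjusted p of a member over all alternatives was 0.603, for Cnp with array weights. The correlation of S100b and Ngfr, 0.018, turned to -0.13 with quantile normalisation; the cause was not tested.

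With the replicate number as a block, which leaves out cafeteria replicate 5 because its number has 1 array, the log2 folds were 0.058 for S100b, -0.95 for Sox10, 0.079 for Gfap, 0.33 for Ngfr and -0.13 for Cnp, and 0 probe sets were called (lowest adjusted p 0.081). The number of probe sets called was 0 to 2 with each array left out. The 2 came without standard replicate 2, had no symbol in the annotation and were lower in cafeteria islets, and neither belonged to a member.

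The median of the myelin genes was -0.057 over 2 tested genes and -0.29 with no filter, where 9 were tested. The median over these 9 was not taken with an array left out. The median of the neuron genes was -0.040, and 0.12 with no filter, -0.20 at the 60th percentile filter and from -0.20 to 0.19 with each array left out. With each array left out, medians that turned sign were those of the myelin (-0.12 to 0.011), neurotrophin (-0.093 to 0.025), stellate (-0.10 to 0.12), duct (-0.41 to 0.058) and endocrine genes (-0.057 to 0.157). The macrophage median was -0.21, and -0.53 at the 60th percentile filter, where 2 genes were left. Leaving out pairs of arrays was chosen after the data were seen. Without cafeteria replicate 5 and standard replicate 1 the log2 folds were 0.18 for S100b, -0.61 for Sox10, 0.094 for Gfap, 0.27 for Ngfr and -0.21 for Cnp; without cafeteria replicate 3 and standard replicate 3, Cnp had -0.014 and Sox10 -1.08. In both settings 0 probe sets were called. The dimness of 4 of the 5 genes limits what 9 arrays can show.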
